A study of Mus musculus with 6 samples.

Results

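The mouse gene annotation has a class named for retained introns, and 1601 of its transcripts were read at least once in brown fat of cold-exposed and control mice. Of these, 868 hold a whole intron of a coding transcript. The members are the transcripts listed in any count file whose biotype in GENCODE M21 is retained_intron, matched by Ensembl transcript identifier. They were 1601 of the 14671 listed transcripts that matched the annotation, and they belonged to 1179 host genes. The same annotation placed 10761 listed transcripts under protein_coding, 834 under processed_transcript and 765 under nonsense_mediated_decay. Each count is the number of nanopore cDNA reads that the study's authors assigned to that transcript, and the class held 151091 of them.

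The RNA came from interscapular brown adipose tissue of wild-type C57BL/6N males aged 20 weeks, with 3 libraries per group and 1 mouse per library. The control libraries carry the mouse numbers 2, 9 and 14 and the cold libraries 4, 11 and 15. Cold mice were housed singly at 4 °C for 24 h, and the ordinary housing of the colony was 22 to 24 °C. All 6 libraries were made from RNA that passed 2 rounds of poly(A) selection and from cDNA that requires a cap and was amplified for 27 PCR cycles, and each was read on 2 flow cells, which were summed here. The extraction text names eWAT where the other labels name brown fat, and all 8 brown adipocyte markers had reads in these libraries.

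An intron is removed from a pre-mRNA by the spliceosome, which recognises a GT at its start and an AG at its end in most cases. A retained intron is one that stays in an otherwise spliced, polyadenylated RNA. Such RNAs are often held in the nucleus, and in the cytoplasm they usually meet a premature stop codon and can be degraded by nonsense-mediated decay, so a gene can make much RNA of this class without making more protein. Short introns rich in G and C are known to be retained more often in mammals. The annotation gives these transcripts no coding sequence. A count of reads assigned to a member does not show whether each read crosses the intron, and the labels do not say how a read that fits several transcripts was counted.

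The first 4 introns below are shown because they are what separates some of the most abundant members from the coding messenger RNA of the same gene. The introns of Mrps24-201 and Cox6a1-202, members ranked 83 and 21 by level, were chosen for another reason, given after the sequences. Each lies whole inside 1 exon of the member and is spliced out of the named coding transcript. Capitals mark the first and the last 2 letters, and the sequences were read 5′ to 3′ from the GENCODE M21 transcripts on GRCm38.
Pck1-202, intron 9 of 9 of Pck1-201: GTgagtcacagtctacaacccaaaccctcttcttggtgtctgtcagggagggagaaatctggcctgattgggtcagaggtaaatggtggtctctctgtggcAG
Atp5k-203, intron 1 of 3 of Atp5k-201: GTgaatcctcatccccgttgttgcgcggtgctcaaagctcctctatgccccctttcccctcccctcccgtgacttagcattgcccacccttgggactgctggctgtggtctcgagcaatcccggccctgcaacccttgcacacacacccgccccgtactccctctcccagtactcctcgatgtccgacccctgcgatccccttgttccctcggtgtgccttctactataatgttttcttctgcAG
Slc25a39-213, intron 10 of 11 of Slc25a39-202: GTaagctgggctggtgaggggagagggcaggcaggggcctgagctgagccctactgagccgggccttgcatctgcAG
Ndufb10-202, intron 3 of 3 of Ndufb10-201: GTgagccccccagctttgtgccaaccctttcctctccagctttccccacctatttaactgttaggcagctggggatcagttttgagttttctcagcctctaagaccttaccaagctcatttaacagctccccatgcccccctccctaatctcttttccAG
Mrps24-201, intron 1 of 3 of Mrps24-205: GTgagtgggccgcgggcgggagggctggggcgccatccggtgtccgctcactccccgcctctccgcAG
Cox6a1-202, intron 1 of 2 of Cox6a1-201: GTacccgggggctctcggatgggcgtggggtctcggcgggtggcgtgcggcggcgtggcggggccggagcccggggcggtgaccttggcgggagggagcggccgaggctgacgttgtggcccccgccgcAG
The Pck1 intron is at chr2:173158089-173158191 on the plus strand and is 103 bases long. The Atp5k intron is at chr5:108434081-108434325 on the minus strand, with 245 bases. The Slc25a39 intron, at chr11:102403714-102403790 on the minus strand, has 77 bases, and the Ndufb10 intron, at chr17:24722221-24722380 on the minus strand, has 160 bases. All 4 introns lie between coding exons, and none of the 4 has a length that is a multiple of 3. The Mrps24 intron (chr11:5707556-5707623, minus strand, 68 bases) and the Cox6a1 intron (chr5:115348708-115348838, minus strand, 131 bases) were chosen after their values were seen, because the share of these genes held by the class differed between groups in a test described further on. They have the most G and C of the 6, 77.9% and 80.2%, where the first 4 range from 51.2% in Ndufb10 to 67.5% in Slc25a39. The share of Ndufb10-202, which holds the intron with the least G and C, was also called by a test described further on. Whether G and C content goes with a change of share was not tested.

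Over the whole class, the held introns were short. The members held 1497 distinct introns of coding transcripts, with a median length of 224 bases (quartiles 114 and 504), against a median of 931 bases (quartiles 281 and 2534) for the 11768 other introns of the coding transcripts of the host genes. Of the held introns, 59.8% had at most 300 bases, against 26.2% of the others. The position in the gene was alike: 21.3% of held introns and 20.8% of the others were the first intron of a coding transcript, and 19.8% and 17.9% were the last. Of the held introns, 1462 began with GT and ended with AG, 24 began with GC and ended with AG, and 11 had other ends. Their length was a multiple of 3 in 31.1% of cases, their median GC content was 53.1%, and 1370 lay between coding exons. These are properties of the annotation for the transcripts that were listed, and they carry no test.

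**Figure D1:**
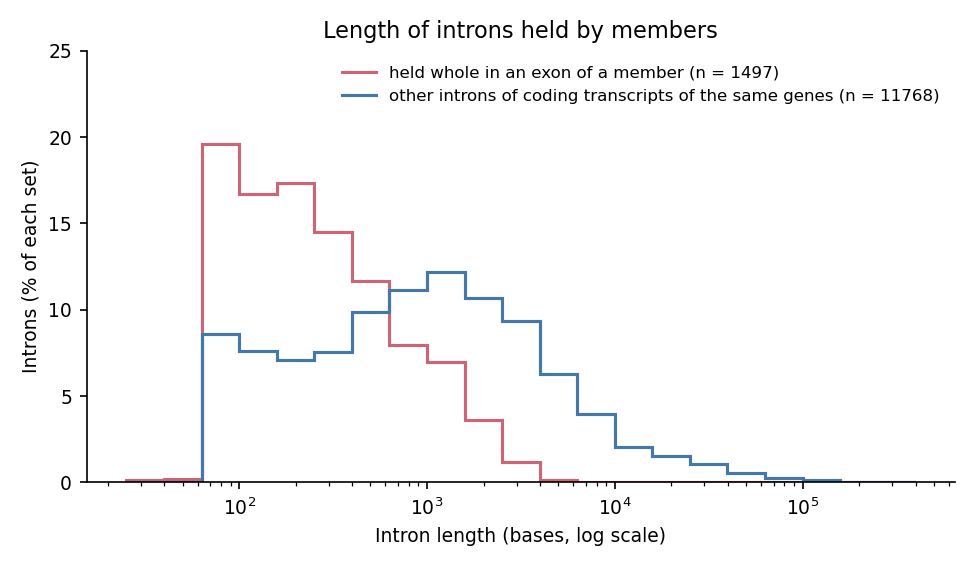
Percent of introns (y axis) by intron length in bases (x axis, log scale) for the 1497 introns held within members and the 11768 other introns of coding transcripts of the same genes. The held introns peak in the bins under 300 bases, and the others have their median at 931 bases.

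The name of the class covers more than 1 kind of structure. A whole intron of a coding transcript lay within an exon of 868 members, which held 76.5% of the class reads, and 492 of them held exactly 1 intron. Another 679 members held no whole intron but started or ended inside one, with 20.7% of the reads. A further 29 members were of neither kind (1.08% of the reads), and 25 belonged to genes without a coding transcript (1.79%). Single-exon members numbered 131 and held 2.76% of the reads. The start of 947 members lay within 100 bases of a coding start and the end of 677 within 100 bases of a coding end, and the 360 members with both held 51.6% of the reads. Exon bases were shared with another gene on the same strand by 148 members and with one on the opposite strand by 311, and the reads of such members cannot be divided between the genes with certainty.

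Reads in the class were concentrated in few members. The 10 most abundant took 54.9% of the class reads and the 20 most abundant 69.0%. At the other end, 634 members had 1 read in all 6 libraries together, 1197 had fewer than 10, and 682 were seen in 1 library only, whereas 277 had reads in every library. Levels are given below in CPM, read counts per library scaled to a common depth by the trimmed mean of M values, and 3 reads correspond to between 0.976 CPM in cold 15 and 3.11 CPM in control 9. The filter on low counts left 162 members for the tests, and these held 94.5% of the class reads.

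The share of a library's reads that fell in the class did not separate cold from control mice. It was 1.23%, 1.05% and 1.09% in control mice 2, 9 and 14 and 1.11%, 1.07% and 1.17% in cold mice 4, 11 and 15. The 95% Wilson interval was 1.03% to 1.07% for control 9, the shallowest library, and 1.21% to 1.24% for control 2; such intervals cover counting error only. Control 2 was the highest and control 9 the lowest of the 6, so that all cold values lay within the control range. The means were 1.12% ± 0.0936 in control and 1.12% ± 0.05 in cold mice (SD, n = 3), and an exact two-sided permutation test gave p = 1, where 3 libraries against 3 cannot give less than 0.1. Read against the reads of the host genes alone, the class took 1.90%, 1.57% and 1.61% in control and 1.63%, 1.55% and 1.74% in cold mice (exact permutation p = 0.8, n = 3 per group). The number of members seen, after every library was thinned to the smallest total, was 568, 530 and 475 in control and 518, 499 and 581 in cold mice, again with overlapping groups (exact permutation p = 0.8, n = 3). Without thinning it was 755, 530 and 623 in control and 803, 779 and 897 in cold libraries, all of which were sequenced more deeply.

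**Figure D2:**
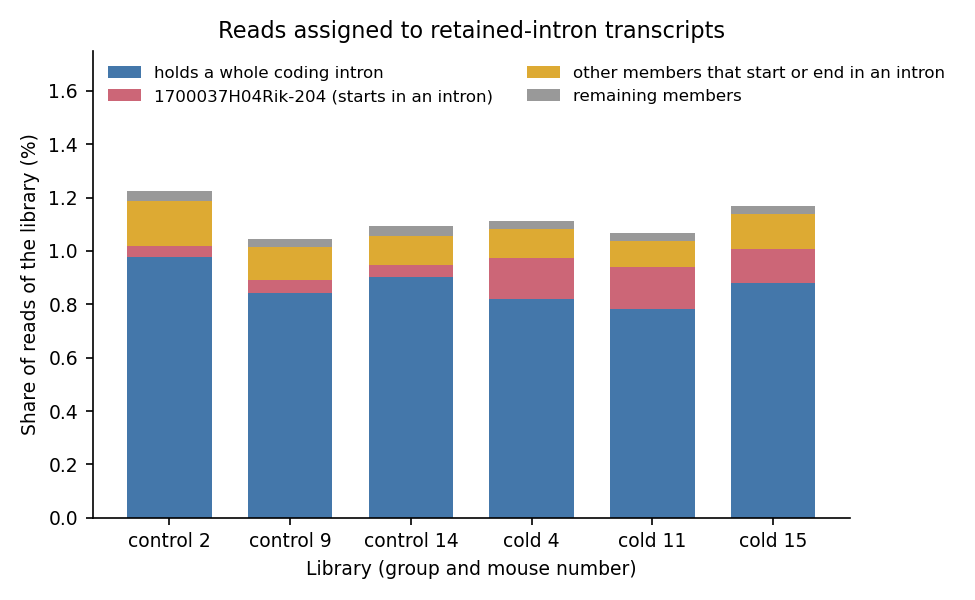
Percent of all reads of a library (y axis) assigned to members, as stacked bars for the 3 control and 3 cold libraries, split into members that hold a whole intron, 1700037H04Rik-204, the other members that start or end in an intron, and the rest. The bars end between 1.05% and 1.23%, and the part from 1700037H04Rik-204 is larger in all 3 cold libraries than in any control library.

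Within the class, the shares of the main kinds of structure did not overlap between the groups, and this separation was not seen without 1 member. Members with a whole intron made up 80.9% ± 1.47 of the class in control and 74.1% ± 1.17 in cold mice, and members that start or end in an intron 15.9% ± 1.52 and 23.2% ± 0.951 (SD, n = 3). The groups did not overlap in either (exact permutation p = 0.1, the smallest possible with n = 3). Transcript 1700037H04Rik-204, which starts in an intron, took 3.20%, 4.79% and 4.21% of the class in control and 13.8%, 14.8% and 10.9% in cold mice. Without it the whole-intron share was 84.4% ± 1.89 and 85.3% ± 0.625 (exact permutation p = 0.6, n = 3), and the class as a whole took 1.08% ± 0.0991 of reads in control and 0.970% ± 0.0659 in cold mice (exact permutation p = 0.2, n = 3). Over all genes, transcripts annotated under nonsense-mediated decay took 2.03% ± 0.111 of a library's reads in control and 2.20% ± 0.0746 in cold mice, and processed transcripts 1.53% ± 0.134 and 1.22% ± 0.0159. Protein-coding transcripts took 94.5% ± 0.307 and 94.8% ± 0.0526. None of these pairs overlapped (exact permutation p = 0.1 each, n = 3).

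The members of highest level included several whose coding product works in the inner mitochondrial membrane. Atp5k-203 comes from the gene of a small subunit of ATP synthase and had 1237, 713 and 744 CPM in control and 549, 480 and 560 CPM in cold mice. All cold values lay below all control values, and the member fell by 0.76 ± 0.22 on the log2 scale (edgeR adjusted p = 0.0199). The change was -0.45 without control 2, the highest library (adjusted p = 0.0439), -0.79 without cold 4 (adjusted p = 0.0585) and -0.69 without cold 11 (adjusted p = 0.0767). The gene moved by -0.78, and the member's share of it lay between 45.7% and 47.9% in all 6 libraries.

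Ndufb10-202, from the gene of an accessory subunit of complex I, had 549, 422 and 453 CPM in control and 266, 226 and 305 CPM in cold mice. It fell by 0.84 ± 0.20 on the log2 scale (edgeR adjusted p = 0.00646), while the gene moved by -0.60. Its share was 32.4%, 30.6% and 33.4% in control and 25.8%, 28.2% and 28.3% in cold mice, so the groups did not overlap in the share either. The log ratio of this member to the rest of its gene changed by -0.33 ± 0.08 (limma adjusted p = 0.0383), but the call was lost when any library other than control 9 was left out (adjusted p between 0.0581 and 0.215). Cyc1-204, from the gene of cytochrome c1, held between 2.15% and 3.27% of its gene and did not pass the test of its level (log2 change -0.52, edgeR adjusted p = 0.0671).

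Other abundant members came from genes of mitochondrial transport and metabolism. Slc25a39 encodes an inner membrane carrier that brings glutathione into mitochondria. Slc25a39-213 had 324, 359 and 328 CPM in control and 629, 656 and 529 CPM in cold mice, and rose by 0.84 ± 0.18 on the log2 scale (edgeR adjusted p = 0.00346). Every cold library was above every control library, and the gene changed by 0.84 as well. The share was 52.0% to 55.9% over the 6 libraries, with a Wilson interval of up to 7.79 points in 1 library. Pck1 encodes the cytosolic phosphoenolpyruvate carboxykinase, an enzyme of gluconeogenesis and, in fat, of glyceroneogenesis. Pck1-202 had 888, 1050 and 1558 CPM in control and 788, 669 and 656 CPM in cold mice, and fell by 0.73 ± 0.21 on the log2 scale (edgeR adjusted p = 0.0208). Control 14 was the highest, and without it the change was -0.47 (adjusted p = 0.0937), while without cold 11 it was -0.69 (adjusted p = 0.0735). Its share of Pck1 was 14.7%, 13.0% and 14.0% in control and 13.2%, 12.1% and 12.7% in cold mice, which overlap.

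Idh3g encodes a regulatory subunit of the NAD-dependent isocitrate dehydrogenase of the citric acid cycle. Idh3g-209, which holds 3 introns, had 557, 625 and 537 CPM in control and 357, 291 and 468 CPM in cold mice (log2 change -0.62, edgeR adjusted p = 0.034). That call was lost without control 9, control 14, cold 4 or cold 11 (adjusted p = 0.102, 0.0525, 0.117 and 0.16). The share of the gene, 7.23%, 8.13% and 6.60% in control and 5.01%, 4.06% and 7.02% in cold mice, overlapped through cold 15. Prdx5 encodes peroxiredoxin 5, which reduces peroxides. Its member Prdx5-202, with 4 held introns, took between 86.0% and 88.6% of the gene's reads, and its level (709 ± 79.4 CPM in control, 578 ± 14.3 CPM in cold mice, SD, n = 3) did not pass the test (edgeR adjusted p = 0.202). A stretch of 281 bases of Prdx5-202 lies opposite exons of Trmt112, a gene on the other strand.

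Of the glycolytic genes, Tpi1 encodes triosephosphate isomerase, and Tpi1-204 had 79.3, 79.7 and 128 CPM in control and 285, 247 and 232 CPM in cold mice. It rose by 1.41 ± 0.24 on the log2 scale (edgeR adjusted p = 0.000845), the gene by 1.38, and the share stayed between 60.2% and 65.2%. Gapdh-213, with 4 held introns, had 92.9, 138 and 91.0 CPM in control and 173, 146 and 179 CPM in cold mice (log2 change 0.63, edgeR adjusted p = 0.048). That call was lost without any library other than control 9 (adjusted p between 0.0685 and 0.15), while the Gapdh gene itself changed by 1.27. Gapdh-213 held 1.97%, 2.04% and 1.18% of its gene in control and 0.991%, 0.897% and 1.42% in cold mice, which overlap.

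Some members took most or all of the reads of their gene. Mlf2-206, with 4 held introns, had 139, 192 and 226 CPM in control and 397, 423 and 292 CPM in cold mice, rose by 1.00 ± 0.23 on the log2 scale (edgeR adjusted p = 0.0063) and held between 90.4% and 93.4% of Mlf2. Tbc1d20 encodes an activator of the GTPase activity of Rab1. Tbc1d20-202 had 38.0, 46.6 and 47.9 CPM in control and 188, 232 and 251 CPM in cold mice, the largest log2 rise among the 20 most abundant (2.34 ± 0.22, edgeR adjusted p = 1.91e-05), and its share of the gene was 64.5% to 76.3%. Fam221b-202 and Gm20427-201 were the only listed transcripts of their genes. Fam221b-202 changed by -0.54 (edgeR adjusted p = 0.0728), or by -0.28 without control 2 (adjusted p = 0.249), and Gm20427-201 by -0.50 (edgeR adjusted p = 0.0565). Of the 3711 bases of Gm20427-201, 3503 are shared with H2-Ke6 and Slc39a7 on the same strand, so its reads may belong to either.

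Members from genes of the cytosolic ribosome were present among the 20 most abundant as well. Rpl41-207 changed by -0.82 (edgeR adjusted p = 0.0224), a call lost without control 2, control 14, cold 4 or cold 11 (adjusted p between 0.0571 and 0.0834). Rps21-204, with 46.5% to 52.8% of its gene, and Fau-207 did not pass the test of the level (edgeR adjusted p = 0.108 and 0.509). Fau-207 held 23.6%, 22.8% and 22.5% of Fau in control and 16.0%, 17.6% and 20.4% in cold mice. These groups did not overlap, yet the log ratio did not pass the test (limma adjusted p = 0.0858).

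**Figure D3:**
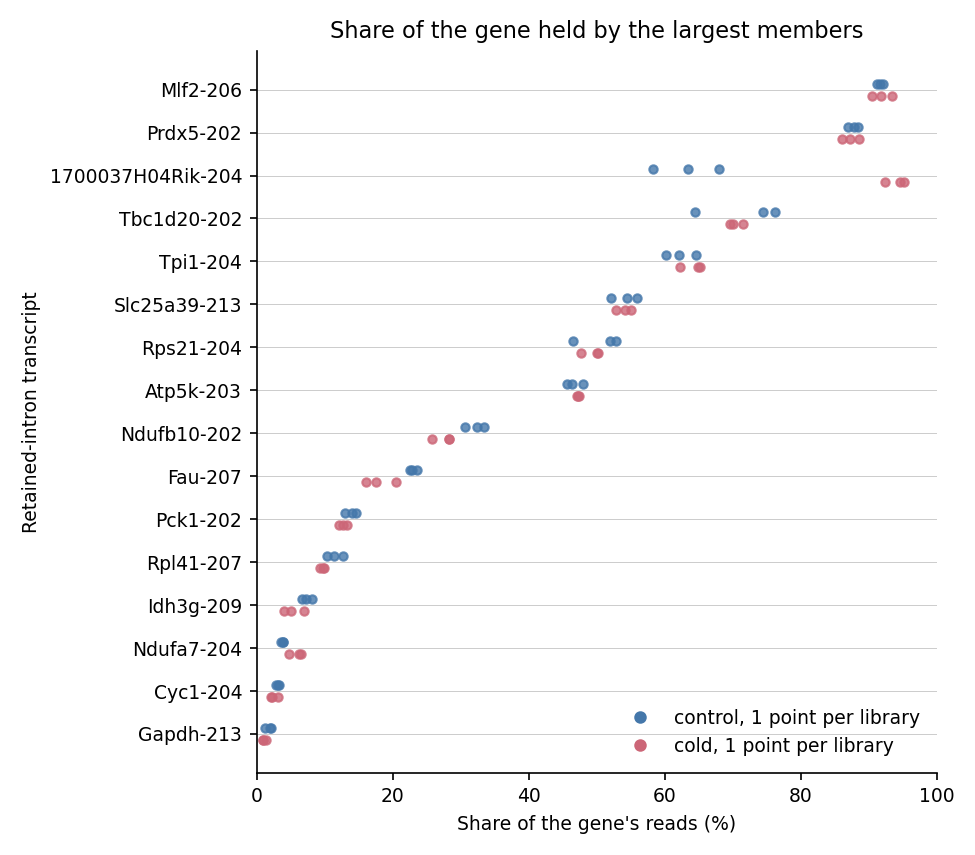
Percent of the reads of the host gene (x axis) held by 16 of the 20 most abundant members, each from a gene with another listed transcript (y axis), with 1 point per library, control and cold in different colours. The 6 points of a member lie within 5 points of each other for 10 of the 16, and those of 1700037H04Rik-204 split into 58.2% to 68.0% in control and 92.4% to 95.2% in cold mice.

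Across host genes the share of reads in the class ranged from almost none to all. Of the 446 host genes with at least 20 reads in every library, the median share was 0.351% (quartiles 0.109% and 1.67%, mean of 6 libraries), and 211 genes were under 1% in all 6. The class held over 50% of the reads in all 6 libraries in 25 genes, of which 2 had no other listed transcript. Beside genes described above, these included Cuta, Hspa8, Ppdpf, Akt1s1, Slc1a5, Use1, Psme1, Ldhd, Rpp21, H2-K1, Gpt, Pepd, Eif4a1, Sema4a, Hsd3b7 and Adrm1. They include a chaperone of the heat-shock family (Hspa8), a glutamine and neutral amino acid transporter (Slc1a5) and a subunit of the proteasome activator (Psme1). Of the 25 genes, 5 rose and 7 fell in cold as whole genes by edgeR's quasi-likelihood test, where 33.2% of all 2093 genes tested were called (18.1% higher and 15.1% lower). A share of the gene is a share of assigned reads and not of RNA molecules.

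The level of members was then compared between cold and control mice over all 2787 transcripts that passed the count filter, of which 912 (32.7%) were called at an adjusted p below 0.05. Of the 162 members tested, 20 were higher and 31 lower in cold, where 17.4% of all transcripts tested were higher and 15.3% lower, and the called share in either direction, 31.5%, was near that of all transcripts. The median log2 change of the members was -0.17, against 0.03 over all transcripts tested. By structure, 16 of the 121 tested members with a whole intron were higher and 24 lower, and 3 of the 33 that start or end in an intron were higher and 6 lower. In 39 of the 51 called members the whole gene was called in the same direction, in 12 the gene was not called, and in 0 was it called in the opposite direction (edgeR quasi-likelihood test). The count of a gene includes the reads of the member, and some called members were most of their gene. The same direction is therefore partly built into this comparison. The call held whichever library was left out in 27 members, 13 higher and 14 lower, and was lost in at least 1 of these fits in 24. This count was not made over all transcripts. The count of called members was 29 of 157 tested without cold 4 and 33 of 157 without cold 11. Calls over all transcripts were fewer in these fits as well, 611 of 2681 and 634 of 2701. Cold 15 had the highest level of skeletal muscle markers (6991 CPM, against 120 to 1340 CPM in the other libraries). Without cold 15, 47 of 153 members tested were called, 43 of them among the 51, and 784 of all 2666 transcripts tested.

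The 10 largest rises included Tbc1d20-202, described above, and 1700037H04Rik-204, described further on, and the others were in members at low levels in control mice. Akr1b3 encodes aldose reductase, and Akr1b3-203 had 4, 3 and 2 reads in control and 25, 26 and 70 reads in cold libraries (log2 change 2.69 ± 0.58, edgeR adjusted p = 0.00417), with most reads in cold 15. The Akr1b3 gene rose by 1.74, and the member held 0.422% to 1.98% of it. Atg4d, which encodes a protease of autophagy, had a member, Atg4d-203, that rose by 2.23 on the log2 scale, from 8.57 ± 3.77 to 38.4 ± 6.75 CPM (SD, n = 3). Pex6-203 rose by 1.99, from 7.18 ± 0.969 to 29.1 ± 7.63 CPM, and its gene encodes an ATPase of peroxisome assembly. Lpl-205, a single-exon member from the lipoprotein lipase gene, rose by 1.98, as did the gene by 1.95, and held at most 0.112% of the gene's reads. The adjusted p of edgeR's quasi-likelihood test was 0.000451 for Atg4d-203, 0.000516 for Pex6-203 and 0.00119 for Lpl-205. Ccnl2-205 (1.6, adjusted p = 0.0384 by edgeR) and Traf4-203 (1.48, adjusted p = 0.0277 by edgeR) lost the call when single libraries were left out. For Ccnl2-205 these were control 2 (1.27, adjusted p = 0.156), control 14 (1.32, adjusted p = 0.148) and cold 15 (1.72, adjusted p = 0.0523), and for Traf4-203 control 2 (adjusted p = 0.0872), control 14 (adjusted p = 0.0828) and cold 4 (adjusted p = 0.127). In bulk tissue, more RNA per cell and more cells of a type that expresses the gene cannot be told apart.

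The largest falls included 2 members of Tkt, the gene of transketolase, an enzyme of the pentose phosphate pathway. Tkt-208 had 36, 21 and 28 reads in control and 4, 5 and 7 in cold libraries and fell by 3.40 ± 0.36 on the log2 scale (edgeR adjusted p = 3.62e-05). Tkt-206 fell by 3.03 (edgeR adjusted p = 0.000143) and the whole gene by 2.69. Fabp5-202, from the gene of a fatty acid-binding protein, fell by 2.10 (23.7 ± 8.14 to 5.33 ± 0.770 CPM, SD, n = 3), and its gene changed by -2.25. Eif4a1 encodes an RNA helicase of translation initiation, and Eif4a1-204, which held 64.8% to 77.4% of the gene, fell by 1.96 (38.1 ± 6.15 to 9.74 ± 1.82 CPM). Slc1a5-202 fell by 1.66 (79.2 ± 13.0 to 25 ± 5.98 CPM) at a share of 66.4% to 71.7%, and Psme1-206, which holds 11 introns, fell by 1.61 at a share of 81.7% to 90.3%. Eno1-203, from the gene of an enolase of glycolysis, fell by 1.89. Their adjusted p in edgeR's test was 0.000492 for Fabp5-202, 0.000242 for Eif4a1-204, 0.000444 for Slc1a5-202, 0.00106 for Psme1-206 and 0.00349 for Eno1-203.

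Pepd encodes a peptidase that cleaves dipeptides ending in proline. Pepd-202 fell from 42.8 ± 11.6 to 8.57 ± 2.85 CPM (SD, n = 3; log2 change -2.33, edgeR adjusted p = 0.000217), and its share of the gene was 96.1%, 94.1% and 93.0% in control and 89.7%, 69.0% and 66.7% in cold mice. The reads of the other Pepd transcripts were too few for a test of the share, and the widest Wilson interval was 32.0 points. Grcc10-203 fell by 2.72 (edgeR adjusted p = 0.00141), with 2 reads in cold 4. It shares 402 bases with Gm45234 on the same strand, and a Gm45234 transcript is identical to it over 95% of its length, so the reads may belong to either gene. Gtf2a2-207 changed by -1.66 (edgeR adjusted p = 0.0362) and lost the call in 5 of the 6 fits without 1 library.

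Grouped by host gene, members of the respiratory chain and ATP synthase took 21.0% of the class reads, more than any other functional group counted, with 91 members in 51 genes. Of the 21 that were tested, none was higher and 3 were lower, Ndufb10-202, Atp5k-203 and Atp5e-202, and the median log2 change was -0.35 (edgeR adjusted p; at an unadjusted p under 0.05, 0 were higher and 7 lower, and DESeq2 called 0 and 2). Over all transcripts tested, 17.4% were higher and 15.3% lower by edgeR's adjusted p. At an unadjusted p under 0.05, 65 of all 162 members tested passed in either direction, and this share was not counted over all transcripts. DESeq2, run without the count filter, called 731 of 14671 transcripts in either direction. Cytosolic ribosomal proteins had 92 members with 4.98% of the reads, of which 16 were tested, 0 higher and 1 lower (Rpl41-207), at a median of -0.48 (edgeR; 0 and 3 at an unadjusted p under 0.05, and 0 and 1 by DESeq2). Fau-207 is not in this count, which takes genes with Rpl and Rps symbols. The mitochondrial ribosome had 25 members, 4 of them tested, with Mrps24-201 higher (1.44 ± 0.31, edgeR adjusted p = 0.00388) and Mrpl57-202 lower (-1.33, edgeR adjusted p = 0.0206). All other host genes had 1341 members with 73.2% of the reads, and 19 of the 119 tested were higher and 25 lower.

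Whether the class gained or lost ground inside a gene was tested on 125 genes in which both the summed members and the summed other transcripts passed the count filter. Class and remainder moved together: across these genes the log2 changes of the 2 sums had a Pearson r of 0.83 and a Spearman rho of 0.83, as a description over 125 genes that share the same 6 libraries, and 105 genes had both changes of the same sign. The median change of the class relative to the remainder was -0.06 (quartiles -0.32 and 0.19, log2). The mean share differed between groups by a median of 0.766 points, and by less than 5 points in 106 of the 125 genes. Where the class is a small part of a gene, a difference of 5 points can hardly arise. The shares of Atp5e, Cox6a1 and Ndufa7, called by a test below, differed by -0.298, 0.365 and 2.13 points. The class sum was called higher in 17 of the 125 genes and lower in 25 (edgeR), where 18.1% of all genes tested as whole genes were called higher and 15.1% lower. Among these 42 genes the remainder was called in the same direction in 27, was not called in 14, and was called in the opposite direction in 1, 1700037H04Rik.

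**Figure D4:**
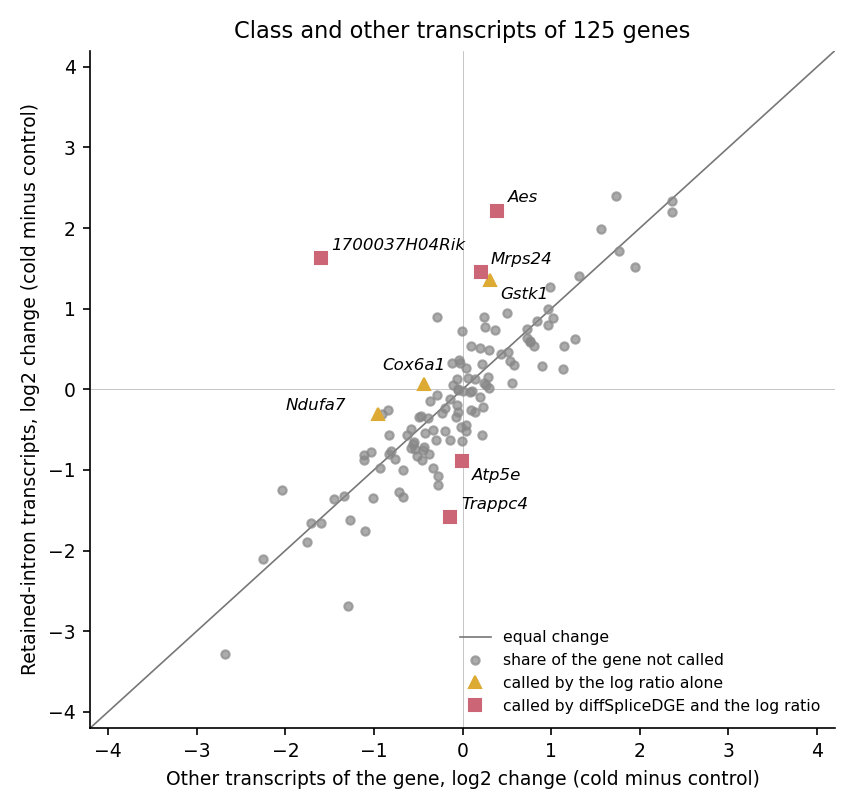
Log2 change in cold against control of the summed members (y axis) and of the summed other transcripts (x axis) for 125 genes, 1 point per gene, with the diagonal of equal change. Genes whose class share was called are named, and 1700037H04Rik stands alone with the members at 1.63 and the rest on the other side of 0.

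The direct test of the share, edgeR's diffSpliceDGE on the 2 sums, called 5 of the 125 genes (4%), 3 with a higher and 2 with a lower class share in cold. A test on the log ratio of the 2 sums within each library, fitted with limma and chosen after the data were seen, called the same 5 and another 3 (6.4%). The same tests called 1 of 90 genes (1.11%; 3.33% by the log ratio) for nonsense-mediated decay transcripts and 3 of 68 (4.41%; 2.94% by the log ratio) for processed transcripts. For single members, diffSpliceDGE called 10 of 1343 transcripts (0.745%, with 0.298% higher and 0.447% lower), and 1 of the 144 members tested was called, Aes-207 (1.90 ± 0.38, adjusted p = 0.0205, up to 0.312 when control 14 was left out). It compares a transcript with a gene total that includes it, so that a dominant transcript can hardly be called. The log ratio to the rest of the gene called 53 of 1404 transcripts (3.77%, with 1.99% higher and 1.78% lower), and among 145 members 6 were higher and 2 lower.

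The gene 1700037H04Rik had the largest change of share. Its member 1700037H04Rik-204 spans chr2:131146325-131149028 on the minus strand in 3 exons and 1647 bases, 734 of which lie outside every coding exon of the gene. It starts 10992 bases from the nearest coding start and shares the coding end. It had 725, 509 and 797 reads in control and 4493, 4719 and 3771 reads in cold libraries, which is 466 ± 67.2 and 1442 ± 189 CPM (SD, n = 3), and rose by 1.63 ± 0.18 on the log2 scale (edgeR adjusted p = 6.43e-05). It was the most abundant member of the class. At the same time 1700037H04Rik-207, a transcript annotated as a target of nonsense-mediated decay, fell by 1.59 ± 0.21 from 245 ± 34.7 to 81.2 ± 10.7 CPM (edgeR adjusted p = 0.00019), and the coding 1700037H04Rik-202 fell by 1.63 ± 0.28 from 22.2 ± 3.73 to 7.11 ± 0.833 CPM (edgeR adjusted p = 0.00106). The class share of the gene was 58.2%, 63.4% and 68.0% in control and 94.6%, 95.2% and 92.4% in cold mice, a change of 3.23 ± 0.27 in the log2 ratio (diffSpliceDGE adjusted p = 6.15e-07). It was called in every alternative fit, with log2 ratios between 3.08 and 3.43 when single libraries were left out. A count of the whole gene rose by 1.06 ± 0.17 (edgeR adjusted p = 0.000745), the opposite direction to its coding transcript.

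In Mrps24, the gene of a small-subunit protein of the mitochondrial ribosome, the class held 11.6%, 10% and 12.0% of reads in control and 25.1%, 27.8% and 18.5% in cold mice, with no overlap. The log2 ratio changed by 1.25 ± 0.28 (diffSpliceDGE adjusted p = 0.0162), and the gene's level by 0.42 (edgeR adjusted p = 0.145). Mrps24-201 holds the 68-base intron printed above. The share call was kept without cold 15 (adjusted p = 0.0441) and lost without any other single library (adjusted p between 0.0805 and 0.14). In Aes, which encodes a Groucho-family corepressor, the share was 5.50%, 9.76% and 4.08% in control and 18.3%, 16.1% and 22.3% in cold mice (log2 ratio 1.82 ± 0.41, diffSpliceDGE adjusted p = 0.0162). Its member Aes-207 had 4, 5 and 6 reads in control and 41, 68 and 67 in cold libraries and rose by 2.50 ± 0.39 (edgeR adjusted p = 0.000543). The share call in Aes was lost without control 2 (adjusted p = 0.107), control 14 (adjusted p = 0.208) or cold 15 (adjusted p = 0.117).

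A lower class share in cold was called in Trappc4 and Atp5e. Trappc4 encodes a subunit of the TRAPP complex of vesicle transport, and the class held 34.1%, 38.9% and 24.4% of its reads in control and 15.4%, 14.3% and 14.4% in cold mice (log2 ratio -1.45 ± 0.32, diffSpliceDGE adjusted p = 0.0162). The control values were spread wider than the cold ones, and the call was kept without control 14 (adjusted p = 0.022) and lost without any other library (adjusted p between 0.0725 and 0.121). Atp5e encodes the epsilon subunit of ATP synthase. There the class was a small part of the gene, 0.804%, 0.644% and 0.551% in control and 0.397%, 0.379% and 0.330% in cold mice (log2 ratio -0.88 ± 0.22, diffSpliceDGE adjusted p = 0.0323), and the call was lost in each fit without 1 library (adjusted p between 0.0691 and 0.198).

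The log ratio also called Gstk1, Ndufa7 and Cox6a1. Gstk1 encodes a glutathione transferase of mitochondria and peroxisomes, and the class held 21.9%, 22.0% and 17.4% of its reads in control and 34.3%, 29.8% and 39.6% in cold mice (log2 ratio 1.02 ± 0.27, limma adjusted p = 0.0359, diffSpliceDGE adjusted p = 0.0979). Ndufa7 and Cox6a1 encode subunits of complex I and of cytochrome c oxidase. The class held 4.08%, 4.04% and 3.74% of Ndufa7 in control and 6.82%, 5.01% and 6.40% in cold mice (0.64 ± 0.14, limma adjusted p = 0.0210, diffSpliceDGE adjusted p = 0.234). In Cox6a1 it was 0.953%, 0.756% and 0.917% in control and 1.30%, 1.15% and 1.27% in cold mice (0.51 ± 0.14, limma adjusted p = 0.0461, diffSpliceDGE adjusted p = 0.261). In both genes the other transcripts fell, by 0.96 in Ndufa7 (edgeR adjusted p = 0.00107) and by 0.43 in Cox6a1 (edgeR adjusted p = 0.0208), while the class sum had changes of -0.31 and 0.06 that did not pass the test. The limma calls for Gstk1 and Cox6a1 were lost in each fit without 1 library (adjusted p between 0.0631 and 0.242), and that for Ndufa7 was lost without control 2, 9 or 14 or cold 4 (adjusted p between 0.0905 and 0.0936).

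**Figure D5:**
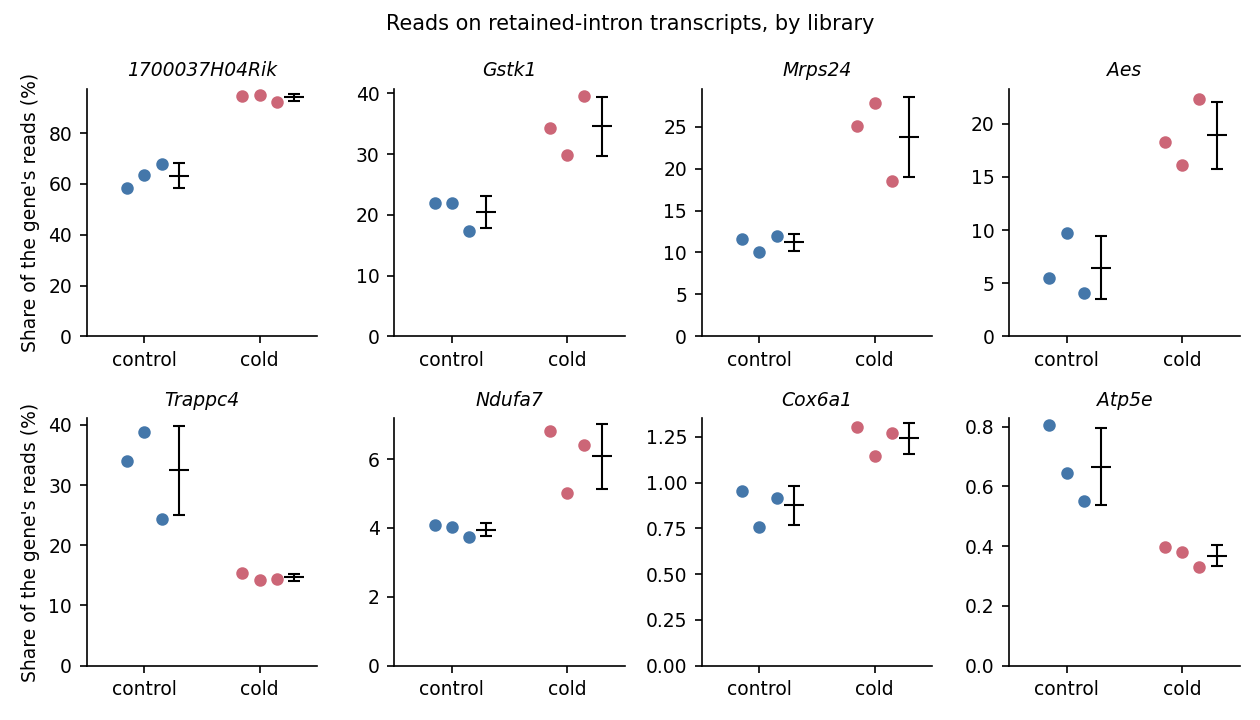
Percent of a gene's reads held by the class (y axis) in each library for the 8 genes whose share was called by either test, with points for libraries and bars for the mean ± SD of 3. Control and cold points do not overlap in any of the 8 panels, which largely follows from choosing the genes by tests of this same difference. The axes differ between genes because the shares run from under 1% in Atp5e to over 90% in 1700037H04Rik.

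Genes whose products remove introns or handle RNAs that keep them were counted from lists, at the level of the whole gene. Most were at low counts in these libraries, and the counts of called genes are to be read against the 33.2% of all genes tested that were called (18.1% higher, 15.1% lower). Of 23 splicing regulators 21 had reads and 4 were tested, and Srsf6, a serine- and arginine-rich splicing factor, rose by 0.63 (137 to 212 CPM, edgeR adjusted p = 0.0343, lost without control 2, control 14, cold 4 or cold 11, up to 0.118). Srsf3 was called as well (3.01, edgeR adjusted p = 0.00368), but from 0.580 CPM in control, below the level of 3 reads, to 5.76 CPM in cold mice. Of 37 core spliceosome genes 9 were tested, with Snrpc higher (1.11, edgeR adjusted p = 0.0189) and Snrpd2 lower (-1.24, edgeR adjusted p = 0.032). Of 25 hnRNP genes 12 were tested, with Hnrnpf (1.10, edgeR adjusted p = 0.0063) and Hnrnpm (1.03, edgeR adjusted p = 0.0116) higher and Pcbp2 lower (-1.13, edgeR adjusted p = 0.0181). Leaving out single libraries raised the adjusted p to at most 0.0931 for Snrpc, 0.141 for Snrpd2, 0.023 for Hnrnpf, 0.0666 for Hnrnpm and 0.0891 for Pcbp2. Of 22 genes of nuclear retention and the exosome 3 were tested and Exosc4 was higher (0.80, edgeR adjusted p = 0.0435, up to 0.158 without cold 15). Of 17 genes of nonsense-mediated decay 3 were tested and 0 were called by edgeR, 0 at an unadjusted p under 0.05 and 0 by DESeq2. Members of the class belonged to 10 of the splicing regulators, 9 of the spliceosome genes and 5 of the hnRNP genes, and all RNA lists together held 0.169% of the class reads, with 1 member tested, Snrpb-202 (0.51, edgeR adjusted p = 0.403).

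The libraries differed in depth and in muscle RNA. Control libraries had between 1014812 and 1849351 reads and cold libraries between 2922939 and 2982630, so that every cold library was deeper than every control library. The 10 skeletal muscle markers summed to 123, 362 and 553 CPM in control and 120, 1340 and 6991 CPM in cold libraries, with Myh2 at 0 in all 6, and the part of this RNA in the results was not tested beyond the fits without cold 15. Brown adipocyte markers summed to between 13894 and 19045 CPM in all 6 libraries, and 4 of 5 macrophage markers were at 0 in every library. The 6 general adipocyte markers summed to between 43886 and 49454 CPM in control and between 61497 and 68176 CPM in cold libraries, and the 3 white adipocyte markers to between 66.5 and 119 CPM and between 166 and 256 CPM. A sum does not speak for each marker. Adipoq, among the 6, went the other way, with 2188, 1706 and 1847 CPM in control and 927, 1081 and 1122 CPM in cold libraries. Genes of the mitochondrial genome took 4.66% to 6.84% of reads in control and 2.36% to 3.16% in cold libraries. The groups did not overlap in these 3 measures (the general and white adipocyte sums and the share of the mitochondrial genome). Outside the genes of the mitochondrial genome, the class share of reads differed by -0.0371 points between cold and control (exact permutation p = 0.7, n = 3), and the part of these measures in the other results was not tested.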

How the data were processed

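The authors sequenced full-length cDNA of 6 libraries on a nanopore instrument and deposited, for each of 2 flow cells per library, read counts per Ensembl transcript. Per the submitters' processing notes the build was GRCm38 and the aligner minimap2; its version and the rule for reads that fit several transcripts are not given in the sources used here. Counts were summed over the flow cells and matched to GENCODE M21 without version numbers; 22 of 14693 listed transcripts, with at most 0.00433% of a library's reads, did not match. Libraries held 1014812 to 2982630 reads, which makes 3 reads 0.976 to 3.11 CPM on the TMM scale used here. The members and all gene lists were chosen with earlier results of these data known.

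Levels were tested over all transcripts, and over all genes, with edgeR 4.0.16 in R 4.3.3 (filterByExpr with a minimum count of 10, TMM, robust quasi-likelihood F test, Benjamini-Hochberg adjustment). The share of a gene was tested with diffSpliceDGE and, as an alternative chosen after the data were seen, with limma 3.58.1 on log2 ratios with 0.5 reads added to both sides. Values per library were compared with exact two-sided permutation tests, and the procedures were tested on simulated counts. Introns shorter than 30 bases were left out. Named members are the 20 of highest mean CPM, the 10 largest called rises and falls, and the 10 smallest adjusted p in each test of the share; single members named beyond these were chosen after their values were seen, and 3 members that the rule names are not reported here. Printed introns are among those of at most 300 bases held by these members. The alternatives were DESeq2 1.42.0, other scalings, no filter, equal depth, single flow cells and leaving out each library. The A content after the 3′ end was planned and is not analysed here, as it needs a genome sequence.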

Additional observations from a re-analysis of the deposited data

How the results depend on the processing

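No paired analysis was possible because the groups share no mouse numbers. The difference in class share of reads, cold minus control, was -0.00531 points with all libraries, 0.00526 on flow cell 1 alone and between -0.0429 and 0.0471 when 1 library was left out. For the share within host genes the range was -0.112 to 0.0523 (all libraries -0.0506), above 0 without control 2. The difference in members seen at equal depth was 8.33, but -16.3 when 3 reads were required, -15.1 as the mean of 100 draws, and between -16.3 and 30.2 when 1 library was left out. Called members numbered 29 to 52 when 1 library was left out, and 34 to 50 under other scalings, DESeq2, no filter, equal depth or 1 flow cell. Over all transcripts, the calls numbered 611 to 862 and 642 to 914 in the same fits. Members with a changed share of their gene (1 by diffSpliceDGE) numbered 0 on flow cell 1, at equal depth and without a filter. At an unadjusted p under 0.05 there were 7 of 103, 6 of 90 and 44 of 1488 members tested. Over all transcripts, 10 of 970, 6 of 826 and 6 of 9813 were called in these fits. Called members numbered 0 to 1 without 1 library (7 to 16 at that unadjusted p, with 136 to 179 tested), and 8 by the log ratio, which gave 2 to 7 without 1 library. Genes with a changed class share (5) fell to 1 on flow cell 1, at equal depth, without a filter and with voom and diffSplice, and to 2 to 4 without 1 library. The log ratio called 8, and 1 to 11 without 1 library, so of these genes 1700037H04Rik alone was called in all of these fits. Called host genes numbered 168 to 251, where calls over all genes numbered 498 to 708. With all libraries they were 231 of 678 tested (34.1%), near the 33.2% of all 2093 genes tested. Leaving out 1 library, the level change ran from -0.68 to 0.042 for Fau-207 and the usage change from -1.35 to 0.027 for Atp5e-203 (both above 0 without control 2), each negative with all libraries. The cause of these shifts was not tested. Depth limits the class, since 1197 of 1601 members had fewer than 10 reads.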
